A study of Mus musculus with 2 samples.

Results

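The 37 genes described here encode lysosomal hydrolases, lysosomal membrane proteins, the proton pump that acidifies the lysosome and 2 regulators of the organelle. They were chosen by name, and each had at least 1 probe on the array, so all 37 of the 19084 genes measured were analysed. The data are array intensities of spleen cells from naïve NOD-SCID mice, sorted into Z(+) and Z(-) cells. Z cells are named after Zfra, a small protein that they bind, and the question is how the fraction labelled Z(+) differs from Z(-). All mice carried the Prkdc scid mutation on the NOD background, as NOD.CB17-Prkdc scid/NCrCrl, which leaves them without mature T and B cells. The mice were males aged 6 to 8 weeks, and the cells were neither cultured nor treated. Each fraction gave 1 RNA sample, and the design line gives the number 8, which may stand for spleens, so the mice may have been pooled. Elsewhere in the study Z cells were sorted with a fluorescent TMR-labelled Zfra peptide, and whether the same probe served for the NOD-SCID spleens is not given in the sources used here. For Hyal2, whose product on the membrane is described as the receptor of Zfra, 608 was measured in Z(-) against 670 in Z(+).

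Lysosomes are acidic organelles in which hydrolases break down material taken up from outside or delivered by autophagy. A V-type ATPase, built of a membrane sector V0 and a catalytic sector V1, pumps protons into the lumen and keeps the hydrolases at their working pH. Heavily glycosylated membrane proteins line the organelle and shield its membrane. Macrophages, which clear dying cells and old red blood cells in the spleen, are rich in lysosomes, while NK cells, basophils and granulocytes carry related secretory granules. The factor TFEB switches on many lysosomal genes when it moves into the nucleus.

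Most of the 37 genes were within 2-fold between Z(+) and Z(-), and 4 were not. Lyst and Tfeb, the 2 regulators, were higher in Z(+) by 2-fold or more, whereas the hydrolase genes Gla and Arsb were lower by as much. That is 2 of 37 in each direction, while among all 19084 genes 2.44% were higher and 6.27% lower by that size, and among the brighter genes, those from the median brightness upward, which hold 36 of the 37, 2.12% and 6.14%. With so few genes in each direction nothing is read from these counts. In smaller differences the members leaned upward. Of the 37, 27 had a higher intensity in Z(+), or 73.0%, beside 54.1% of all genes and 50.2% of the brighter genes. At a size of 1.5-fold, 6 of the 37 were higher, beside 7.89% of all genes and 7.65% of the brighter ones, and 2 were lower, beside 13.5% and 14.3%. The median log2 difference, Z(+) minus Z(-), was 0.20 over the members, which is 1.15-fold, and 0.03 over all genes. With 1 sample per fraction no test between them exists, no p-value is given, and sizes are differences between this pair of RNA samples. In such bulk RNA, fewer cells of a type and less RNA per cell cannot be told apart.

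**Figure D1:**
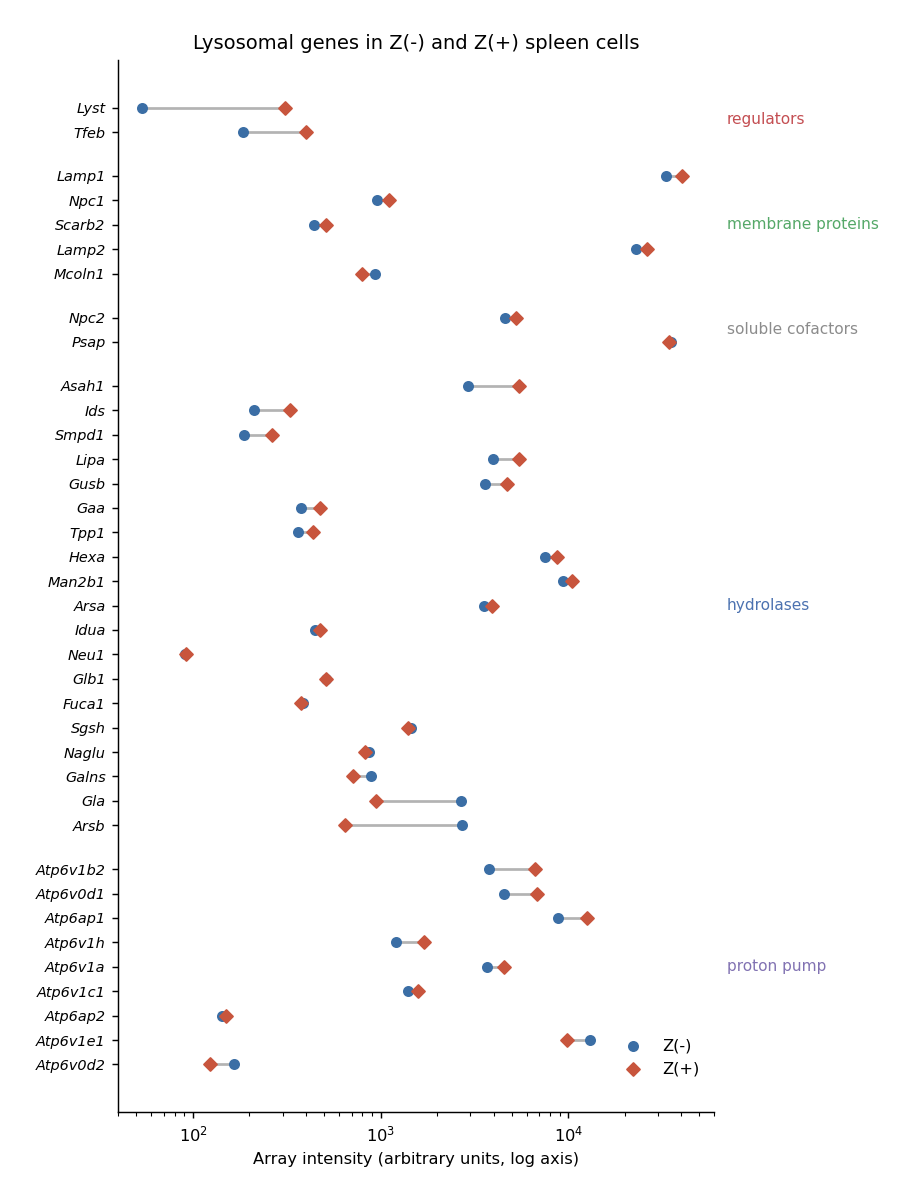
Intensity of each lysosomal gene in Z(-) (circles) and Z(+) (diamonds) on a log axis, in arbitrary units and grouped by role, with the grey line joining both values; genes with several probes are shown at the mean of their log2 values. Lyst moves farthest to the right, from 53.4 to 308, Gla and Arsb farthest to the left, and the values of most other genes lie close together.

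Each deposited value is the mean of 2 technical arrays of the same RNA, and below an intensity of 2000 both could be recovered, since each array holds whole numbers times a factor of its own. This gave single-array values in both samples for 24 of the 41 member probes. Arrays measure the spread of hybridization, not that of the sort or the mice. Between intensities of 400 and 1000, 95% of all probes agreed between arrays within 1.12-fold in Z(-) and 1.17-fold in Z(+). Between 100 and 400 this was 1.13-fold and 1.30-fold, and between 20 and 100 it was 1.49-fold and 2.29-fold. For 20 of the 24 probes the arrays of Z(+) lay wholly above or wholly below those of Z(-), 16 above and 4 below. For the other 4, of Fuca1, Glb1, Naglu and Neu1, they overlapped. The same shares over all probes were not counted, so nothing particular to the members is read from these counts. A second spread comes from probe choice. Over the 2104 genes with exactly 2 probes, the log2 differences of the paired probes differed with an SD of 0.83. For the 702 of them in which neither probe fell below median brightness the SD was 0.63, so a value from 1 probe, as for 33 of the 37 genes, is uncertain by more than the arrays show.

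**Figure D2:**
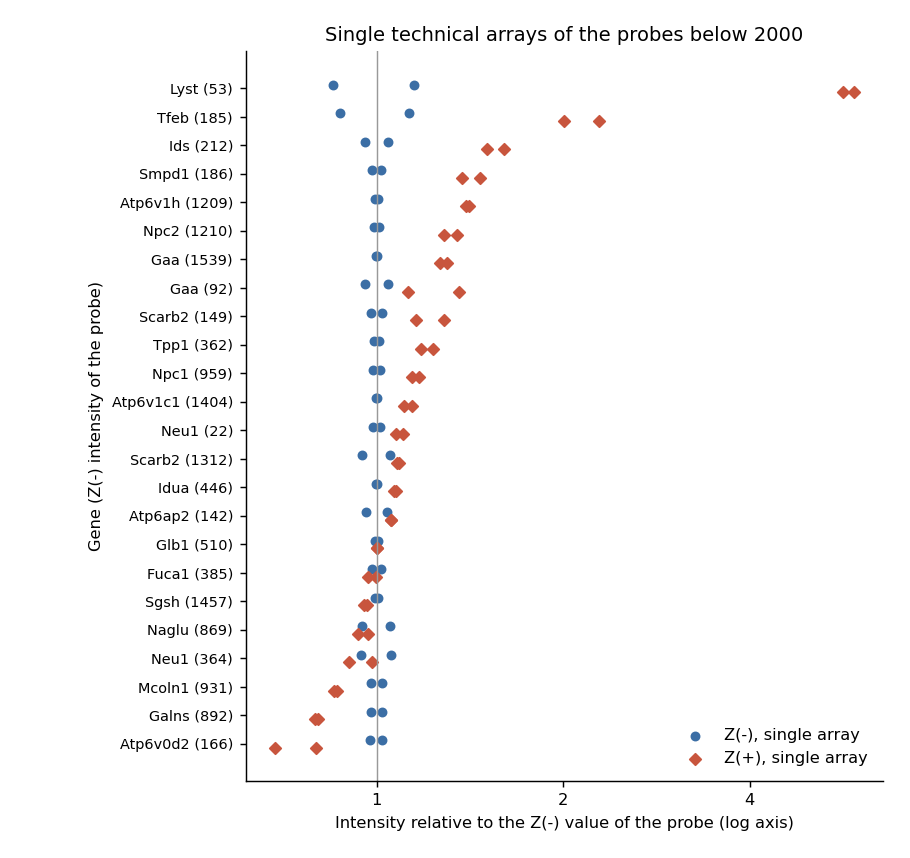
Single technical arrays of the 24 probes with both samples below 2000, as intensity relative to the deposited Z(-) value of the same probe (log axis), with that value in brackets beside the gene. Circles are the 2 arrays of Z(-) and diamonds the 2 arrays of Z(+); Lyst, Tfeb and Ids lie clear of their Z(-) arrays, and those of Glb1 and Fuca1 fall together.

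The regulators showed the largest upward differences. Lyst encodes a large cytosolic BEACH-domain protein that controls the size of lysosomes and secretory granules, and its loss in beige mice gives giant granules. Its intensity was 53.4 in Z(-) but 308 in Z(+), a 5.77-fold difference that placed it 51st from the top of all 19084 genes. Single arrays read 61.4 and 45.5 in Z(-) against 302 and 314 in Z(+), so the groups did not overlap. The Z(-) value lies in the range where arrays differ most, and any pairing of single arrays gave a log2 difference between 2.30 and 2.79. With 50 added to every intensity it was 1.79. Tfeb encodes the transcription factor of lysosomal genes. It had 185 in Z(-) and 398 in Z(+), or 2.15-fold, with arrays of 209 and 162 against 424 and 372. These arrays were apart as well, but the log2 difference ran from 0.83 to 1.39 over their pairings, so Tfeb lies near the 2-fold line. With 50 added it was 0.93. Each of the 2 genes had 1 probe.

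The listed genes related to Tfeb were within 2-fold between the fractions. Tfe3 and Mitf, which encode factors of the same family, had log2 differences of 0.18 and 0.05. Tfec, another one, had 662 in Z(-) and 877 in Z(+), or 1.32-fold. Flcn, which encodes folliculin, a regulator of this family through nutrient sensing, had 2564 and 3662, or 1.43-fold. Rptor, the mTORC1 subunit raptor, had 2580.5 and 2038. Lamtor1, which anchors mTORC1 to the lysosome, had 3155 and 2303 on its bright probe, a log2 difference of -0.45, while its other probe was dim at 5.99 and 5.01. None of these 9 genes of the family and of nutrient sensing was past 2-fold, and their median was 0.05. Over all genes 2.44% were higher and 6.27% lower by that size, so nothing is read from the count in 9 genes.

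TFEB binds an E-box with the core letters CACGTG, which reads the same on both strands. These letters were looked up in the 250 bases before and 50 after the starts of genes in the RefSeq table of GRCm38.p6, which has such a window for 30 of the 37 members and none for the other 7. CACGTG occurred in 10 of the 30 members, or 33.3%, and in 8.09% of the 27025 genes of the table. Longer forms that contain it, TCACGTG (or CACGTGA) and TCACGTGA, occurred in 10 and 4 members, against 4.29% and 1.12% of all genes. A form with 1 further letter on each side of TCACGTGA, also searched, occurred in 0 of the 30 members and in 0.37% of all genes. A match of letters is no evidence of binding. Stretches of 5 promoters are shown, the 3 members with several copies, 1 with a single copy, and Lyst, which has none in its window. Each is written 5′ to 3′ on the strand of the gene, with CACGTG in capitals.
Lamp1, chr8:13159086-13159160, plus strand: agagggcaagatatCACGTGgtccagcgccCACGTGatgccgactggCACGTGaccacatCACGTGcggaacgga
Mcoln1, chr8:3500439-3500503, plus strand: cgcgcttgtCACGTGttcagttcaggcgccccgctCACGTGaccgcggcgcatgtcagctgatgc
Gla, chrX:134601177-134601241, minus strand: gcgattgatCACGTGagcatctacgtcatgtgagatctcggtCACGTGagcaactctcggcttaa
Naglu, chr11:101069999-101070048, plus strand: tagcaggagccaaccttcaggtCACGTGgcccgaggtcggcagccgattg
Lyst, chr13:13590239-13590298, plus strand: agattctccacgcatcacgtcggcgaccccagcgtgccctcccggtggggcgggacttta

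The members with and without these letters covered overlapping ranges of differences. The 10 members with CACGTG had a median log2 difference of 0.07, and 6 of them were higher in Z(+). The 20 without it had a median of 0.20, and 16 were higher. Lamp1, with 4 copies in the stretch shown, was 1.21-fold higher in Z(+), while Mcoln1 and Gla, with 2 copies each, were both lower. Lyst, Tfeb and Arsb, which were past 2-fold, had no copy in any of their windows, and Gla had 2.

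Among membrane proteins, 4 of 5 genes had a higher intensity in Z(+), none was past 2-fold, and the median log2 difference was 0.20. Beside this, 54.1% of all genes were higher, and 2.44% were higher and 6.27% lower by 2-fold or more. With 5 genes nothing is read from these counts. Lamp1 and Lamp2 encode the most abundant glycoproteins of the lysosomal membrane. Lamp1 had 33167 in Z(-) and 40107 in Z(+), and Lamp2 had 22972 and 26115. These were 1.21-fold and 1.14-fold higher, and values this bright could not be split into arrays. Npc1 encodes the transporter that carries cholesterol out of the lysosome, and its arrays were 945 and 972 in Z(-) against 1092 and 1124 in Z(+). Its partner Npc2, a soluble cholesterol carrier, had a pair of probes with 1210.4 and 1596 from one, and 17270.5 and 17372 from the other. The first probe thus gave 1.32-fold and the brighter one 1.01-fold. Scarb2 encodes LIMP-2, the receptor that takes beta-glucocerebrosidase to the lysosome, and its probes gave log2 differences of 0.29 and 0.11, both with arrays apart. Mcoln1, which encodes the calcium channel TRPML1, went the other way with arrays of 949 and 912 in Z(-) against 804 and 795 in Z(+). Psap encodes prosaposin, the precursor of the activator proteins of sphingolipid breakdown. It had 35147 and 34245, which is 1.03-fold lower.

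The 19 hydrolase genes had a median log2 difference of 0.13, 13 were higher in Z(+) and 2 were at least 2-fold lower. Of all genes 54.1% were higher and 6.27% at least 2-fold lower. Arsb, which encodes arylsulfatase B, a sulfatase of dermatan and chondroitin sulfate, had 2728 in Z(-) and 645 in Z(+), or 4.23-fold lower. The arrays of Z(+) were 639 and 650, and those of Z(-) were too bright to split. It was 262nd from the bottom of all genes by difference. Gla encodes alpha-galactosidase A, which removes terminal galactose from glycolipids and is deficient in Fabry disease. It had 2694 and 946, or 2.85-fold lower, with Z(+) arrays of 947 and 945. Galns, a second sulfatase of glycosaminoglycans, was 1.25-fold lower with arrays of 909 and 875 against 710 and 717.

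Asah1, which encodes acid ceramidase, had 2929 in Z(-) and 5458 in Z(+), a 1.86-fold difference that was the largest upward among the hydrolase genes. Smpd1, acid sphingomyelinase, was 1.42-fold higher, with arrays of 189 and 183 against 256 and 273. Hexa, the alpha chain of beta-hexosaminidase, was 1.16-fold higher at 7522 and 8692, and Arsa, arylsulfatase A, 1.09-fold at 3571 and 3904. Glb1, which encodes beta-galactosidase, had 510.0 in Z(-) and 511.5 in Z(+), with overlapping arrays.

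Enzymes that degrade glycosaminoglycans were spread on both sides of 0. Ids, which encodes iduronate sulfatase, was 1.56-fold higher, with arrays of 221 and 203 in Z(-) against 340 and 320 in Z(+). Gusb, beta-glucuronidase, had 3593 and 4725, or 1.32-fold higher. Idua, alpha-L-iduronidase, had 446 and 478. Naglu and Sgsh, both of heparan sulfate breakdown, were near no difference at 869 and 827, and at 1457 and 1399. The arrays of Naglu overlapped, and those of Sgsh were apart by a small step.

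The remaining hydrolase genes were slightly higher in Z(+) or nearly alike in both fractions. Lipa, lysosomal acid lipase, which frees cholesterol from its esters, had 3992 in Z(-) and 5462 in Z(+), or 1.37-fold higher. Gaa, the acid alpha-glucosidase of glycogen, gave 1.24-fold and 1.28-fold from its 2 probes. Tpp1, a tripeptidyl peptidase, was 1.21-fold higher, with arrays of 365 and 360 against 447 and 427. Man2b1, the lysosomal alpha-mannosidase, had 9344 and 10471. Fuca1, a fucosidase, had 385 and 378 with overlapping arrays. Neu1, a sialidase that works in a complex with Glb1, had a dim probe at 22.5 and 24.5 and a brighter one at 364 and 343, and the arrays of the brighter probe overlapped.

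**Figure D3:**
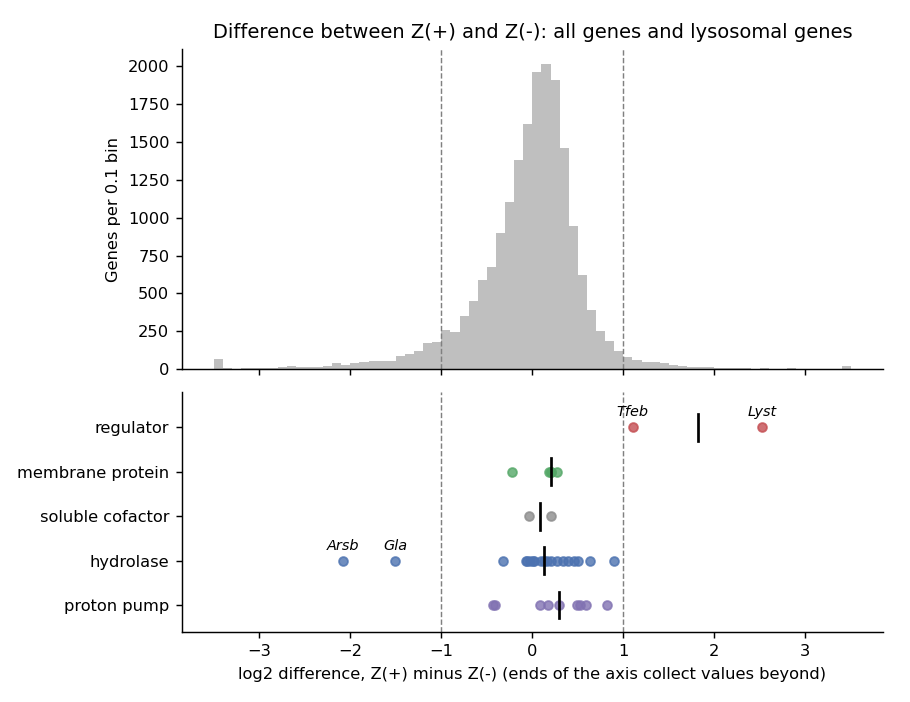
Upper panel, number of genes by log2 difference, Z(+) minus Z(-), over all 19084 genes in bins of 0.1; lower panel, each lysosomal gene by role with the median as a black line, and dashed lines at 2-fold. Lyst and Tfeb lie to the right of the lines and Arsb and Gla to the left, while the other 33 genes lie between them.

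Of the 9 proton pump genes, 7 had a higher intensity in Z(+), none was past 2-fold, and the median log2 difference was 0.30, or 1.23-fold. The share of all genes that were higher was 54.1%, and 2.44% were higher and 6.27% lower by 2-fold or more. With 9 genes nothing is read from these counts. Atp6v1b2, the B subunit of the catalytic V1 sector that is used by most cells outside the kidney, had 3784 in Z(-) and 6683 in Z(+), or 1.77-fold. Atp6v1a, the catalytic A subunit beside it, had 3701 and 4544, or 1.23-fold. Atp6v1h, the H subunit, had arrays of 1214 and 1204 in Z(-) against 1685 and 1704 in Z(+). Atp6v1c1, the C subunit between the sectors, was 1.12-fold higher with arrays of 1399 and 1408 against 1598 and 1556. These V1 genes differed in size but not in direction. Atp6v1e1, the E subunit of the peripheral stalk, was the V1 member that went the other way, at 12987 and 9790.2, which is 1.33-fold lower.

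The d subunit of the V0 sector exists as a pair of paralogs. Atp6v0d1, which is expressed in all tissues, had 4546 in Z(-) and 6819.5 in Z(+), higher by 0.59 on the log2 scale. Atp6v0d2, known from osteoclasts, macrophages and kidney, had arrays of 162 and 170 in Z(-) against 133 and 114 in Z(+), or 1.35-fold lower. The paralogs therefore differed in opposite directions in this pair of samples. Each had 1 probe, so their log2 differences of 0.59 and -0.43 carry the uncertainty of probe choice. The SD of 0.63 given above describes the gap between 2 bright probes of a gene, not the value of 1 probe. Atp6ap1, an accessory subunit needed for assembly of the pump, had 8785 and 12609, or 1.44-fold higher. Atp6ap2, the other accessory subunit and prorenin receptor, had arrays of 148 and 136 against 150.1 and 149.9, a 1.06-fold difference.

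Of the other 14 measured pump subunits, 7 were higher in Z(+), none was past 2-fold, and the median was 0.03. Only 8 of the 14 reached the median brightness of all genes, and of these 3 were higher, with a median of -0.22. The other 6 were dim, and Atp6v0a4, the a4 isoform known from kidney, was at the floor of 1 in both samples. Atp6v1d, a subunit of the central stalk, had 3656 in Z(-) and 2157 in Z(+), or 1.70-fold lower, and Atp6v0e, a small V0 subunit, had 20918 and 13200.2, or 1.58-fold lower. Atp6v0a1, an isoform of the large a subunit, was 1.40-fold lower, while Atp6v0e2, a paralog of Atp6v0e, was 1.28-fold higher. Tcirg1, the a3 isoform of lysosomes and osteoclasts, had a log2 difference of 0.16. Over all 23 listed pump genes, 14 were higher, or 60.9% beside 54.1% of all genes, and the median was 0.08.

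Further hydrolase and membrane protein genes leaned upward as the members did, while the genes that deliver hydrolases did not. Of all genes 54.1% were higher in Z(+), and of the brighter genes 50.2%. Of 18 other hydrolase and cofactor genes, 13 were higher in Z(+), 1 was at least 2-fold higher and 1 at least 2-fold lower, with a median of 0.35. Lgmn, which encodes the protease legumain, had 3076 and 7319, or 2.38-fold higher, and Ctsa, the protective protein of Glb1 and Neu1, 109.5 and 199, or 1.82-fold. Dnase2a, the lysosomal DNase that digests DNA of engulfed cells, was 1.64-fold higher. Ppt1, a palmitoyl thioesterase, had 398 and 180 (2.21-fold lower). Of 21 other membrane protein genes, 17 were higher and the median was 0.24. Laptm4a had 10964 and 20389, or 1.86-fold higher, and Slc11a1, the metal transporter NRAMP1 of phagosomes, was 1.63-fold higher. Tpcn1, a two-pore channel of endosomes and lysosomes, was 1.49-fold lower. Cd63, a tetraspanin of lysosomes that is also used as an activation marker of basophils, was 4.35-fold lower, with 24199 and 7279 from one probe and 449 and 78.95 from the other. Of 6 genes that deliver hydrolases, 3 were higher and the median was -0.04. Gnptg, a subunit of the enzyme that starts the mannose phosphate tag, was the one past 2-fold, at 359 and 143 (2.50-fold lower). The receptors of that tag had 13389.8 and 16812 for M6pr and 2103 and 1895 for Igf2r, and Sort1, which encodes sortilin, was 1.10-fold higher.

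The listed markers of macrophages, NK cells, basophils and granulocytes differed more than the lysosomal genes did. These lists were chosen with earlier results of these data known, so the contrast is a description only. Of 14 macrophage markers, 8 were higher in Z(+) by at least 2-fold and none was lower by as much, with a median of 1.43. Their summed intensity was 39530 in Z(-) and 70705 in Z(+), and Mertk, Timd4 and C1qb were the markers with the largest differences. Of the 14, 13 were higher by any amount, but Cd68, the brightest, was nearly alike at 19560 and 20381. Fcgr1 was 1.09-fold lower. Of 13 NK cell markers, 11 were at least 2-fold lower, led by Klrb1c, Klre1 and Klrd1, with a summed intensity of 62204 and 4444. The probes of Klrb1c had 566 and 6.49, and 567 and 81.2. Eomes went the other way and was 1.36-fold higher at 661 and 898, and Ncr1 was dim and alike at 5.50 and 5.52. Of 10 markers of basophils and mast cells, 8 were at least 2-fold lower, led by Fcer1a, Mcpt8 and Prss34, with sums of 40486 and 4823. Of 9 markers of granulocyte precursors and neutrophils, 5 were, led by Ctsg, Cxcr2 and Elane, with sums of 202830 and 141166. The sums rest mostly on S100a9, Camp and Ltf, at 56286, 60239 and 61735 in Z(-), near the scanner limit. These were 1.23-fold, 1.31-fold and 1.42-fold lower in Z(+), and S100a8, which was dim, was 1.10-fold higher. Of 7 T cell markers, 4 were at least 2-fold lower, with sums of 12483 and 2051. Most of both sums is Cd3d, at 9971 and 1128. Cd4 and Cd8b1 were dim and nearly alike, at 36.5 and 40.1 and at 74.0 and 71.3. Monocyte and B cell markers had medians of 0.09 each, with sums of 142389 and 160439, and of 6059 and 5902. No marker was listed at 0 in either sample, and the lowest were a basophil or mast cell marker at 3.52 in Z(+) and B cell and NK cell markers near 5.4 to 6.5. The part of these cell types in the differences of Lyst, Tfeb, Gla and Arsb was not tested.

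**Figure D4:**
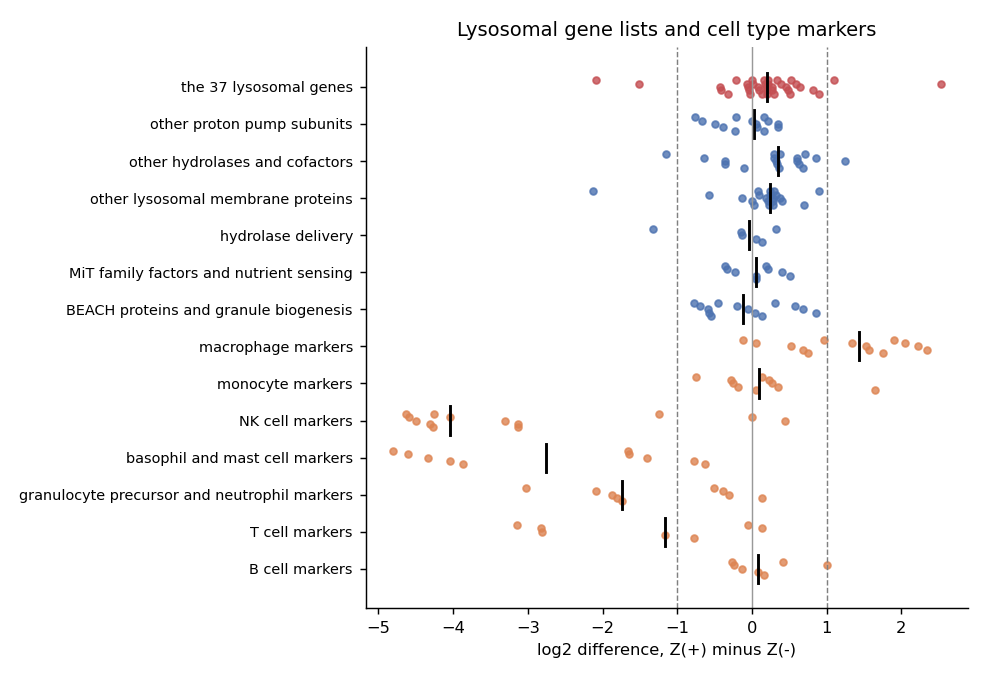
The log2 difference, Z(+) minus Z(-), of each gene of the lysosomal lists (red and blue) and of the cell type marker lists (orange), with the list median as a black line and dashed lines at 2-fold. The lysosomal lists have medians between -0.12 and 0.35, while the macrophage markers have 1.43 and the NK cell markers -4.04.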

How the data were processed

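Total RNA of Z(-) and Z(+) spleen cells was amplified and labelled with Cy5, per the labels, and hybridised to a 1-colour array. The authors deposited 1 linear intensity per probe and sample, combining 2 technical arrays. Scanner software, background method and scaling were not given in the sources used here. Median intensity was 88.5 in Z(-) and 85.8 in Z(+), with 37 probes at or below 0 in each and highest values of 65528 and 65296, near the scanner limit of 65535. The number of arrays limits the precision.

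Of 26423 probes, 21876 had 1 gene symbol, 0 several and 4547 none. All 37 members matched RefSeq by gene ID. Values under 1 were set to 1, log2 values of probes were averaged per gene, and Z(-) was subtracted from Z(+). A 2-fold size served as the call. The median brightness was 121. Technical arrays were recovered by searching whole-number pairs with factors of 0.990 and 1.01 in Z(-) and 0.968 and 1.03 in Z(+). The search and the counts were first tested on tables with known answers. The members, lists and settings were chosen with earlier results of these data known. Every member is named, with up to 4 genes of the largest difference, among those at or above the median brightness, from each other lysosomal list, and up to 3 per marker list. Tfe3, Mitf and Tcirg1 were added after their values were seen. So were the markers Cd68, Fcgr1, Eomes, Ncr1, S100a8, S100a9, Camp, Ltf, Cd4 and Cd8b1. A planned comparison of protein sequences was not made. Alternatives covered median centring, quantile normalization, loess with a span of 0.3, the brightest probe, a pseudocount of 50, other filters and fold sizes of 1.5 and 4. Python 3.11.15, numpy 2.4.6, pandas 2.3.3, statsmodels 0.14.6 and matplotlib 3.10.9 were used.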

Additional observations from a re-analysis of the deposited data

How the results depend on the processing

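The direction of Lyst, Tfeb, Gla and Arsb was the same under every alternative tried. The count of members at least 2-fold higher was 2 under each scaling and probe choice, 1 with a pseudocount of 50, where Tfeb was left out at 0.93, 6 at a size of 1.5-fold, where Atp6v0d1 lies on the line, and 1 at 4-fold. The count at least 2-fold lower was 2 throughout, except for 1 at 4-fold. Between 26 and 30 members were higher in Z(+). The median over all members ranged from 0.17 to 0.27, of hydrolases from 0.13 to 0.20, of proton pump genes from 0.29 to 0.36 and of membrane proteins from 0.18 to 0.27, the last under quantile normalization. The sign was the same in every alternative for 31 members and changed for 6, Fuca1, Glb1, Naglu, Neu1, Psap and Sgsh, all within 1.2-fold. Restricting the other proton pump subunits to those of at least median brightness, an alternative chosen after seeing the data, gave 3 higher instead of 7 and a median of -0.22 instead of 0.03. No paired analysis was possible because each fraction gave 1 sample, and for the same reason no sample could be left out. Brightness limits single-array values to probes below 2000.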

Other observations

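The listed genes related to Lyst were all within 2-fold between the fractions. The BEACH family and genes of granule biogenesis gave 14 measured genes, of which 6 were higher in Z(+) and none was past 2-fold, with a median log2 difference of -0.12. Of all genes 54.1% were higher in Z(+), and 2.44% were higher and 6.27% lower by at least 2-fold. At such shares nothing is read from the counts in 14 genes. Nsmaf, a BEACH protein of TNF receptor signaling, had intensities of 3922 in Z(-) against 2290.4 in Z(+), or 1.71-fold lower. Nbeal2, which is needed for platelet alpha granules, had 2526 and 1555, or 1.62-fold lower. Wdfy3, a BEACH protein of selective autophagy, was 1.61-fold higher over 3 probes with log2 differences of 0.61, 0.90 and 0.55. Hps3, a subunit of the BLOC-2 complex of lysosome-related organelles, had 2444 and 4432, or 1.81-fold higher. These values are descriptions of 1 pair of samples.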
